A study of Arabidopsis thaliana with 9 samples.

Results

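Gene expression was measured by RNA sequencing of total RNA in whole seedlings of Arabidopsis thaliana, wild-type accession Col-0. The 2 groups were seedlings 7 days old that received doxycycline (3 libraries) and seedlings 7 days old that received water (3 libraries). They are 6 of the 9 libraries of the series, and both groups had grown on half-strength Murashige and Skoog medium, a mineral salt medium, per the labels' protocols. No transgene or mutation is named for either group. The labels state neither the dose nor the length of the treatment. All 24434 genes listed in the deposited doxycycline table were tested, each on its own. The labels do not say whether replicates were grown apart, so the p-values rest on the spread between these libraries, which may be technical.

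Doxycycline is a tetracycline antibiotic that binds bacterial-type ribosomes, the kind that plants keep inside mitochondria and plastids. In plants it is used to slow protein synthesis in these organelles, and cells answer with changes of nuclear transcription known as retrograde signalling. That answer is best known for genes of mitochondrial repair.

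The libraries held 17724030 to 19943480 reads over the listed genes. Levels are deposited normalized counts, that is, reads divided by a size factor of the library, and they compare samples within a gene but not genes with each other. Changes are log2 differences of value + 1, doxycycline minus water, and a change was called where the limma adjusted p was under 0.05 (Benjamini-Hochberg over all genes). The label of whole seedlings was checked against marker genes. The 6 leaf mesophyll markers summed to 526124 to 600421 normalized counts in doxycycline and 578669 to 635585 in water, and the 3 seed markers (EM1, SESA4 and CRA1) had at most 3 reads in either group. The 11 root markers summed to 1866 to 2163 in doxycycline and 2544 to 3585 in water, groups that did not overlap, and 2 of them were called lower (0 to 1 without 1 library). The 5 guard cell markers summed to 1476 to 1591 in doxycycline and 1596 to 1725 in water, also without overlap. None of the mesophyll, guard cell, trichome, phloem, xylem or shoot meristem markers passed the test.

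Of the 24434 genes, 1581 (6.47%) were higher and 1287 (5.27%) were lower in doxycycline. The median change of the called genes was 1.15 among those higher and -1.08 among those lower, and the median of all genes was -0.01. At least 8-fold changes numbered 242 higher and 177 lower. All 3 doxycycline libraries stood above all 3 water libraries for 15.4% of genes, and below them for 15.2%. Counts of calls were fewer when 1 library was left out. They came to 547, 561, 520, 1168, 938 and 662 higher and to 255, 248, 257, 812, 706 and 262 lower without doxycycline 1, 2 and 3 and water 1, 2 and 3, in this order. The same order is kept wherever 6 counts without 1 library are given below. A single call in 1 direction in a gene list below was lost without at least 1 library, except in the lists of antioxidant enzymes, aliphatic glucosinolates, the tricarboxylic acid cycle and senescence. Shares differed between functions. Beside the 6.47% of all genes, 55.8% of proteasome subunits, 27.3% of NAC factors and 20.3% of MATE and ABC transporters were higher. Beside the 5.27% of all genes, 53.8% of root hair genes and 53.6% of endoplasmic reticulum chaperones and stress genes were lower. So were 35.7% of class III peroxidases and 26.8% of cytosolic ribosomal proteins.

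**Figure D1:**
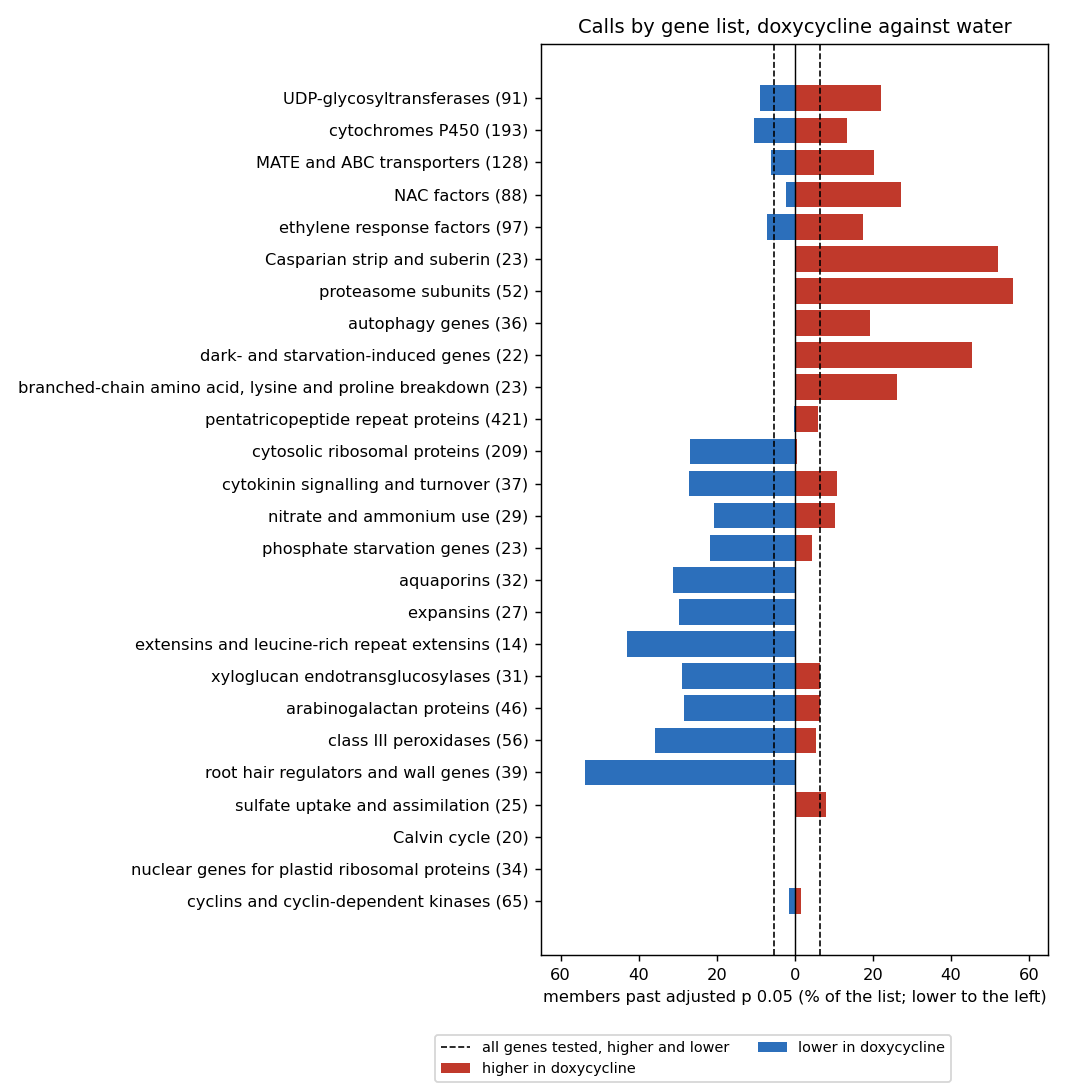
Share of members called higher (red, to the right) and lower (blue, to the left) in doxycycline against water in 26 gene lists, in percent of the members measured, with dashed lines at the shares of all genes (6.47% and 5.27%). Proteasome subunits reach 55.8% higher with 0 lower, and root hair genes 53.8% lower with 0 higher.

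Many genes of chemical detoxification were higher. These families attach sugars, sulfate or oxygen to small molecules, reduce reactive carbonyls, or pump compounds out of the cell or into the vacuole. Among UDP-glycosyltransferases, which attach sugars, 20 of 91 were higher and 8 lower, with a median change of 0.21. Those higher were 15, 15, 14, 17, 18 and 14 without 1 library, and those lower 2, 0, 1, 2, 2 and 1. The summed level of the family was 54577, 54881 and 62869 normalized counts in doxycycline and 40765, 28660 and 33299 in water. UGT73B2 (AT4G34135, chr4:16345150-16347434), a glucosyltransferase that acts on flavonols, had 2877, 2836 and 3745 normalized counts in doxycycline, against 485, 459 and 419 in water. The groups lay far apart, with a change of 2.78 ± 0.13 (SE, limma adjusted p = 8.76e-07). UGT73C5, which glucosylates brassinosteroids and a fungal toxin, had 4577, 4494 and 7019 normalized counts in doxycycline, against 447, 357 and 293 in water, again without overlap (change 3.86 ± 0.20, limma adjusted p = 1.45e-06). UGT73B5 changed by 2.57 ± 0.14 (SE, limma adjusted p = 2.59e-06).

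Of 128 MATE and ABC transporters, families that include exporters, 26 were higher (20.3%, against 6.47% of all genes) and 8 lower, and the others did not pass the test (median 0.20). Those higher were 15, 14, 13, 21, 20 and 16 without 1 library and those lower 3, 3, 2, 2, 5 and 3. DTX3 (AT2G04050, chr2:1337180-1339468) belongs to the multidrug and toxic compound extrusion family of exporters, and had 7648, 6196 and 9663 normalized counts in doxycycline, against 74.5, 166 and 67.1 in water. The lowest doxycycline library was far above the highest water library, with a change of 6.34 ± 0.30 (SE, limma adjusted p = 8.73e-07). ABCB4, an ABC transporter that carries auxin in roots, had 15123, 17892 and 21310 normalized counts in doxycycline, against 1193, 1077 and 1228 in water, with a change of 3.94 ± 0.14 (SE, limma adjusted p = 2.04e-07). ABCG16, a half-size ABC transporter, had 737, 725 and 608 normalized counts in doxycycline, against 57.4, 55.8 and 59.8 in water, with a change of 3.55 ± 0.16 (SE, limma adjusted p = 8.44e-07). All 3 transporter genes kept their call when any 1 library was left out.

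A list of 21 genes held reductases and hydrolases of reactive carbonyls and xenobiotics together with sulfotransferases, some of them of glucosinolate synthesis. Of these 21 genes 7 were higher (33.3%, against 6.47% of all genes) and 1 lower (4.8%, against 5.27%), with a median change of 0.38. Those higher were 2, 3, 2, 6, 4 and 3 without 1 library. OPR1, a flavin enzyme that reduces unsaturated carbonyls, had 6192, 6346 and 6666 normalized counts in doxycycline, against 807, 1140 and 1294 in water, with a change of 2.59 ± 0.16 (SE, limma adjusted p = 4.9e-06). SOT12, a sulfotransferase that sulfates small phenols and steroids, had 5282, 5738 and 8500 normalized counts in doxycycline, against 226, 342 and 202 in water, with a change of 4.66 ± 0.22 (SE, limma adjusted p = 8.73e-07). The groups did not overlap for either gene. Of 41 tau and phi glutathione transferases, 11 were higher (26.8%, against 6.47% of all genes) and 2 lower (4.9%, against 5.27%). Without 1 library those higher were 8, 8, 8, 10, 11 and 10, and those lower 0, 1, 0, 2, 2 and 0. GSTU1 changed by 3.88 ± 0.20 (SE, limma adjusted p = 1.48e-06).

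Cytochrome P450 genes, whose enzymes insert oxygen into small molecules, went both ways. Of 193, 26 were higher (13.5%, against 6.47% of all genes) and 20 lower (10.4%, against 5.27%). Their median was -0.05, and their summed levels overlapped between the groups. Without 1 library those higher were 13, 11, 12, 23, 19 and 13, and those lower 6, 4, 6, 9, 10 and 5. CYP81D8 had 2553, 3660 and 4621 normalized counts in doxycycline, against 56.3, 109 and 75.5 in water, with a change of 5.49 ± 0.25 (SE, limma adjusted p = 8.73e-07). CYP710A1, which makes the sterol stigmasterol, had 848, 840.2 and 807 normalized counts in doxycycline, against 114, 76.0 and 92.3 in water, with a change of 3.15 ± 0.17 (SE, limma adjusted p = 2.02e-06). In both genes every doxycycline library exceeded every water library.

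**Figure D2:**
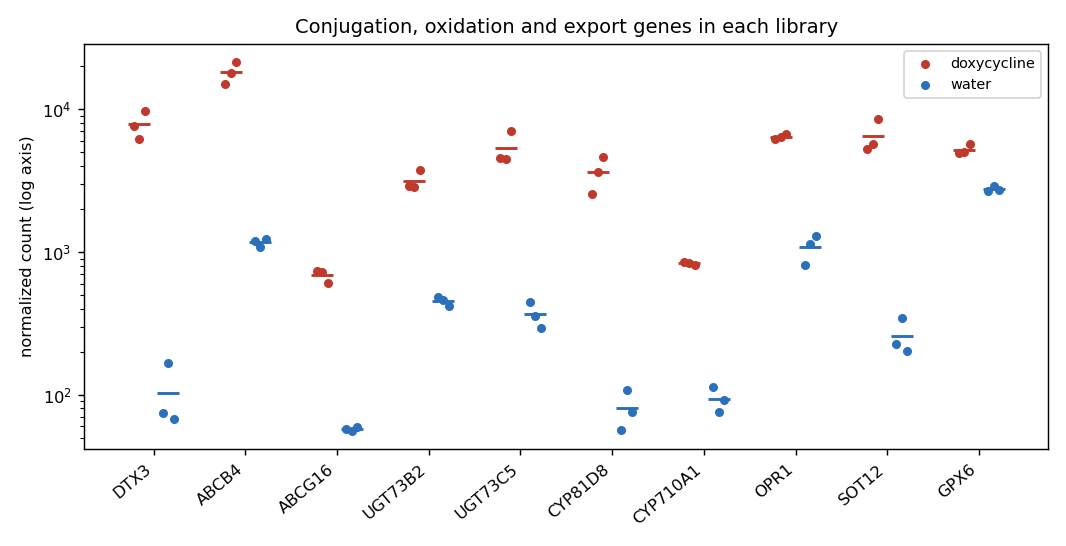
Normalized counts (log axis) of 10 genes of detoxification, transport and redox control in each library, doxycycline left of water for each gene. The 3 doxycycline points lie above the 3 water points for all 10 genes, from DTX3 with the widest gap to GPX6 with the narrowest.

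The mitochondrial dysfunction motif (MDM) is a promoter element bound by NAC factors of retrograde signalling. Its letters, CTTGNNNNNCANG, were searched on both strands in the 250 bases before the annotated start of 22565 genes. The motif stood in 1.7% of all these promoters, in 4.5% of those of genes called higher, in 1.0% of those of genes called lower, and in 15.8% of the 190 promoters of genes at least 8-fold higher. Promoters of DTX3 (chr2:1339469-1339718, minus strand), CYP710A1 (chr2:14541618-14541767, minus strand) and ADH1 (chr1:28975005-28975254, plus strand) are shown because these raised genes of export, sterol synthesis and fermentation hold it. They are RefSeq sequence of assembly TAIR10.1, 5′ to 3′ in the direction of the gene, up to the base before the annotated start. Capitals mark the MDM.
DTX3: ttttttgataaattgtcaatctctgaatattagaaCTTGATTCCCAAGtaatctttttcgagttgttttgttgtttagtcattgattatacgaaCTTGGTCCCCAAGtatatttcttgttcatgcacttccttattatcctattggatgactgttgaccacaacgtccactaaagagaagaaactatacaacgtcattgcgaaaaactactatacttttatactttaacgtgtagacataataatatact
CYP710A1: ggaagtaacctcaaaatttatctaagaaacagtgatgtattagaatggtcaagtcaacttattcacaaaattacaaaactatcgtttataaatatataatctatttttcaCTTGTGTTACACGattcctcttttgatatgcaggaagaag
ADH1: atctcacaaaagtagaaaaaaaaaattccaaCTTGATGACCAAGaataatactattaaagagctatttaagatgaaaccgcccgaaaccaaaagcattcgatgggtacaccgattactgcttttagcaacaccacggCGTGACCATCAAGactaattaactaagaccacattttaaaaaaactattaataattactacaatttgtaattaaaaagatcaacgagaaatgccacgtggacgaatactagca
DTX3 holds it at 215 and 156 bases before the start, CYP710A1 at 40, and ADH1 at 219 and 113, the second of these on the other strand. No other gene overlaps the windows, and no other motif searched overlaps the capitals. Whether any factor bound there was not measured.

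More redox and sulfur genes were called higher than lower, in small numbers. Of 29 antioxidant enzymes, 4 were higher (13.8%, against 6.47% of all genes) and 1 lower (median 0.08). Those higher were 2 without any 1 library. The summed level was 106506, 106397 and 106820 normalized counts in doxycycline and 94118, 97210 and 96525 in water, without overlap. In 27.6% of members all doxycycline libraries stood above all water libraries, against 15.4% of all genes. GPX6, a thiol peroxidase of the glutathione peroxidase family, had 4928, 5035 and 5714 normalized counts in doxycycline, against 2663, 2912 and 2716 in water, with a change of 0.92 ± 0.11 (SE, limma adjusted p = 0.000444). DHAR2, which recycles ascorbate, changed by 1.29 ± 0.15 (SE, limma adjusted p = 0.000444). The lower member was MDHAR (AT3G09940), a monodehydroascorbate reductase gene, with 68.3, 41.0 and 100.7 normalized counts in doxycycline, against 517, 475 and 789 in water and a change of -3.12 ± 0.31 (SE, limma adjusted p = 0.000137). So 2 genes of ascorbate recycling stood on opposite sides, and neither overlapped between groups. Among 25 genes of sulfate uptake and assimilation, 2 were higher (8.0%, near the 6.47% of all genes) and 0 lower. Those higher were 1 without any 1 library. SERAT2;1, which makes the acetylserine from which cysteine is built, was one of them, with 1927, 1903 and 2419 normalized counts in doxycycline, against 738, 440.4 and 576 in water (change 1.85 ± 0.18, limma adjusted p = 0.000111).

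In the glucosinolate and flavonoid lists 4.5 to 9.5% of members were higher, against 6.47% of all genes. Lower were 0 to 4.8%, against 5.27%. Aliphatic glucosinolate synthesis had 1 higher and 0 lower of 22, and indole glucosinolate and camalexin synthesis 2 higher (0 to 2 without 1 library) and 1 lower of 21. The aliphatic member was FMO GS-OX4, which oxidizes the side chain of these sulfur-rich defence compounds, with 933, 763 and 739 normalized counts in doxycycline, against 249.5, 300.0 and 228 in water (change 1.65 ± 0.15, limma adjusted p = 7.49e-05). MYB28, the main regulator of the aliphatic branch, had 405, 539 and 352 normalized counts in doxycycline, against 465, 432 and 758 in water, and the groups overlapped. Flavonoid and anthocyanin synthesis had 1 higher and 1 lower of 22, and TT4, the chalcone synthase that opens the pathway, had 2473, 3711 and 2799 normalized counts in doxycycline, against 1322, 1141 and 2870 in water, again with overlap. Phenylpropanoid and monolignol synthesis, which supplies lignin, had 2 higher (10.5%, against 6.47% of all genes) and 5 lower (26.3%, against 5.27%) of 19 with a median of -0.49. Those higher were 0, 0, 0, 0, 1 and 1 and those lower 0, 0, 0, 0, 4 and 0 without 1 library. Its summed level was 14392, 15336 and 16327 normalized counts in doxycycline and 28578, 15645 and 23687 in water, and water 2 lay with the doxycycline libraries.

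Suberin genes were higher while genes of the Casparian strip did not pass the test. Both structures seal the endodermis, the inner cell layer of the root: the Casparian strip is a lignin band between cells, and suberin a waxy polyester laid on the cell face. Of 13 suberin genes measured 12 were higher, with a median change of 2.77, and of 10 Casparian strip genes none was called, with a median of -0.49. The suberin members higher were 8, 6, 6, 9, 8 and 9 without 1 library. GPAT5, an acyltransferase that makes suberin precursors, had 276, 393 and 269 normalized counts in doxycycline, against 38.2, 25.0 and 40.9 in water, with a change of 3.14 ± 0.27 (SE, limma adjusted p = 4.15e-05). GPAT7, a related acyltransferase, had 249.5, 307 and 221 normalized counts in doxycycline, against 8.05, 4.81 and 15.74 in water, with a change of 4.75 ± 0.40 (SE, limma adjusted p = 3.92e-05). ABCG6, a transporter that exports suberin monomers, had 648, 869.5 and 648 normalized counts in doxycycline, against 26.2, 18.3 and 87.1 in water, with a change of 4.32 ± 0.46 (SE, limma adjusted p = 0.000206). The doxycycline libraries were above the water libraries for all 3 genes, and none lost its call without any 1 library.

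The 12 suberin genes called higher, counted above, included regulators of suberin. MYB39, also known as SUBERMAN, had 269, 206 and 284 normalized counts in doxycycline, against 13.1, 41.4 and 29.4 in water, with a change of 3.26 ± 0.38 (SE, limma adjusted p = 0.000392). MYB41, another activator of suberin genes, had 89.1, 55.6 and 63.8 normalized counts in doxycycline, against 8.05, 5.77 and 7.34 in water, with a change of 3.11 ± 0.38 (SE, limma adjusted p = 0.000535). CASP1, which founds the Casparian strip membrane domain, had 219.8, 129.8 and 107 normalized counts in doxycycline, against 279, 207 and 303 in water, and the groups overlapped (limma adjusted p = 0.0728). The difference between the suberin and Casparian strip genes was not tested as such.

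Root hair genes were lower in 53.8% of members, against 5.27% of all genes. Root hairs are outgrowths of single epidermal cells, built by tip growth with a wall rich in extensins and peroxidases. Of 39 members 21 were lower and 0 higher, with a median of -1.85. Those lower were 7, 8, 8, 14, 12 and 10 without 1 library. RSL2, a transcription factor that drives hair growth, had 0, 0 and 0 normalized counts in doxycycline, against 14.1, 16.4 and 23.1 in water, at least 18.1-fold lower with the doxycycline group set at 3 reads. RHS19, a hair-specific peroxidase gene, had 0.99, 0 and 2.99 normalized counts in doxycycline, against 79.5, 89.4 and 206 in water, with a change of -5.84 ± 0.60 (SE, limma adjusted p = 0.000162). RHD6, the factor that starts hair formation, had 13.9, 9.76 and 1.99 normalized counts in doxycycline, against 25.1, 8.65 and 26.2 in water, and the groups overlapped (limma adjusted p = 0.271). In whole seedlings, fewer cells of a type and less RNA per cell cannot be told apart. The summed root markers were also lower, as given above, and their part in this result was not tested.

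Wall gene families were lower in many members, with shares of 28.3 to 42.9% in the 5 families given next, against 5.27% of all genes. These families share members with the root hair list, among them EXPA7, EXPA18, LRX1 and XTH12, so their counts are not separate from it. Class III peroxidases, which crosslink or loosen walls, had 20 lower and 3 higher (1 to 2 without 1 library) of 56, with a median of -0.76. Those lower were 11, 8, 11, 15, 16 and 11 without 1 library. PER45 had 79.2, 59.5 and 53.8 normalized counts in doxycycline, against 572, 459 and 1072 in water, with a change of -3.35 ± 0.29 (SE, limma adjusted p = 5.37e-05). PER30 had 139, 125 and 92.7 normalized counts in doxycycline, against 681, 590.4 and 914 in water, with a change of -2.60 ± 0.21 (SE, limma adjusted p = 2.73e-05). PER60 had 0 reads in the 3 doxycycline libraries and 31.2, 19.2 and 54.6 normalized counts in water, at least 35.4-fold lower. The groups did not overlap in these 3 genes. The summed level of the family was nevertheless 64931, 63057 and 87848 normalized counts in doxycycline and 170668, 44866 and 91355 in water, so that water 2 fell below every doxycycline library.

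Expansins, which loosen cellulose, had 8 lower and 0 higher of 27 (median -0.68; lower 2, 1, 1, 5, 3 and 1 without 1 library). Extensins, the structural glycoproteins of the wall, had 6 lower and 0 higher of 14 (median -1.01; lower 3, 3, 3, 3, 5 and 3). The extensin sum was 17203, 16244 and 28615 normalized counts in doxycycline and 76753, 15428 and 35355 in water, and water 2 again lay below the doxycycline libraries. EXT6 had 3.96, 0 and 0 normalized counts in doxycycline, against 53.3, 139 and 226 in water, and the groups did not overlap (change -6.14 ± 0.73, limma adjusted p = 0.000454). EXPA18, an expansin of root hairs, had 0 reads in doxycycline and 18.1, 16.4 and 51.4 normalized counts in water, at least 29-fold lower. Arabinogalactan proteins had 13 lower and 3 higher (0 to 2 without 1 library) of 46 (lower 1, 2, 1, 9, 3 and 1). AGP31 had 489, 536 and 482 normalized counts in doxycycline, against 1193, 1237 and 1892 in water, with a change of -1.49 ± 0.17 (SE, limma adjusted p = 0.000333). The enzymes that cut and rejoin xyloglucan, the XTH family, had 9 lower and 2 higher (1 to 3 without 1 library) of 31, and their lower count was 1, 1, 2, 4, 3 and 3 without 1 library. XTH29 was one of those higher, with 24.8, 35.1 and 17.9 normalized counts in doxycycline, against 1.01, 0 and 1.05 in water. The summed XTH level was nonetheless higher in doxycycline, 94677, 80247 and 83059 normalized counts in doxycycline and 71708, 60670 and 65346 in water. Cuticle wax and cutin, the surface lipids of the shoot, had 1 higher and 4 lower of 28 (lower 0, 0, 0, 3, 1 and 1).

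**Figure D3:**
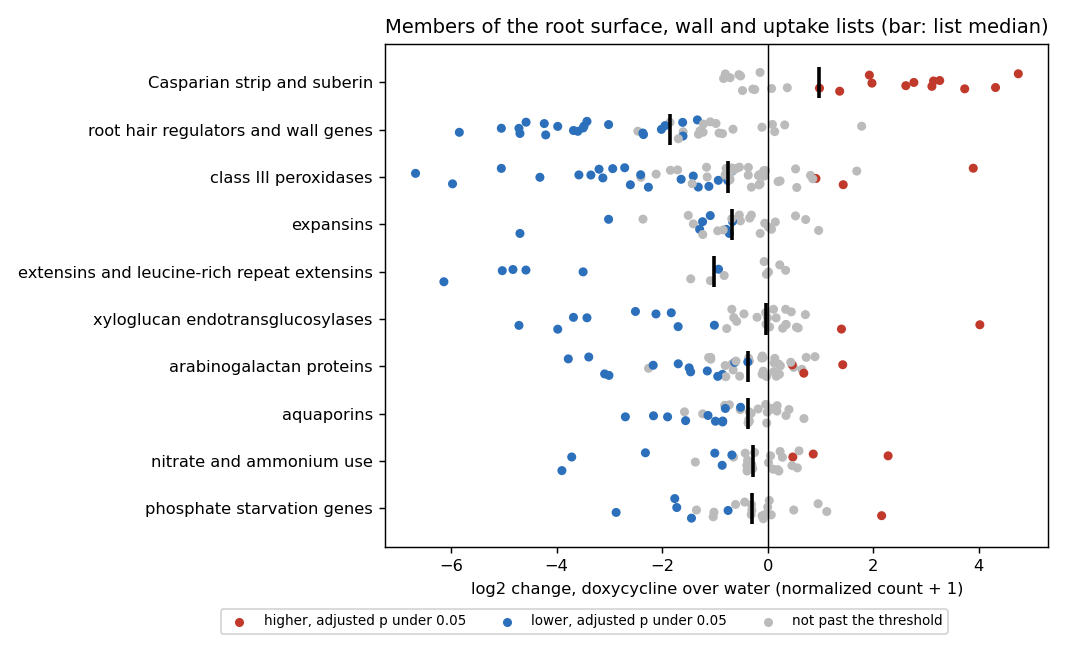
Log2 change (doxycycline minus water) of every measured member of 10 lists of root, wall and transport genes. Called members are coloured, the others are grey, and a bar stands at the median of each list. Suberin and Casparian strip members share a row with its bar at 0.98. The suberin members alone have a median of 2.77 and the Casparian strip members one of -0.49. Root hair members lie to the left around -1.85.

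In the 3 lists of mineral nutrition genes given next, 17.2 to 21.7% of members were lower, against 5.27% of all genes. Higher were 4.3 to 13.8%, against 6.47%. Of 29 genes of nitrate and ammonium use 3 were higher and 6 lower, with the higher count at 0, 0, 1, 3, 2 and 0 and the lower count at 1, 1, 2, 1, 4 and 1 without 1 library. NRT1.5 (AT1G32450, chr1:11715147-11719988), which loads nitrate into the xylem of the root, had 197, 209.8 and 393 normalized counts in doxycycline, against 3597, 3412 and 4452 in water, with a change of -3.90 ± 0.23 (SE, limma adjusted p = 3.83e-06). This was the second largest fall among called genes with a mean of at least 500 normalized counts. Of 23 phosphate starvation genes 1 was higher and 5 lower, among them 4 of the 7 phosphate transporter genes of the PHT1 family and PHO1 (lower 1, 1, 1, 1, 3 and 0 without 1 library). The summed level of the 23 genes was 8502, 10035 and 8657 normalized counts in doxycycline and 16501, 13607 and 11930 in water, without overlap. SPX1, a phosphate-dependent inhibitor of the starvation regulator, had 551, 492 and 486 normalized counts in doxycycline, against 527, 859 and 557 in water, and the groups overlapped. Iron genes went both ways, with 4 higher (0 to 3 without 1 library) and 5 lower (1 to 5 without 1 library) of 29. IRT1, the iron transporter of the root surface, had 0.99, 0 and 0 normalized counts in doxycycline, against 45.3, 44.2 and 264 in water (limma adjusted p = 0.000427). Its doxycycline libraries held 1 read in all, and water 3 stood well above the other water libraries. The summed root markers were also lower, as given above, and their part in these nutrition results was not tested.

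Aquaporins, the water and solute channels of membranes, had 10 lower (31.2%, against 5.27% of all genes) and 0 higher of 32. They split into 6 of 13 plasma membrane, 2 of 8 tonoplast and 2 of 8 NOD26-like members lower. The lower count was 1, 4, 2, 8, 5 and 2 without 1 library, and the summed level was 76192, 75904 and 65888 normalized counts in doxycycline and 104735, 77684 and 94591 in water. NIP5-1, which takes up boric acid into roots, had 1093, 1018 and 984 normalized counts in doxycycline, against 5090, 3539 and 5479 in water, with a change of -2.16 ± 0.16 (SE, limma adjusted p = 1.43e-05) that held without any 1 library.

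Some genes of glycolysis and fermentation were higher. Ethanol fermentation turns pyruvate into ethanol and so regenerates oxidized cofactor for glycolysis. Of 30 genes of glycolysis and fermentation 9 were higher (30.0%, against 6.47% of all genes) and 1 lower (3.3%, against 5.27%). Their median was 0.09, and those higher were 6, 6, 6, 9, 8 and 7 without 1 library. PDC1, pyruvate decarboxylase, had 1536, 2023 and 1712 normalized counts in doxycycline, against 31.2, 11.5 and 45.1 in water, with a change of 6.04 ± 0.39 (SE, limma adjusted p = 6.28e-06). ADH1 (AT1G77120, chr1:28975255-28977417), alcohol dehydrogenase, had 352, 321 and 329 normalized counts in doxycycline, against 57.4, 39.4 and 53.5 in water, with a change of 2.73 ± 0.21 (SE, limma adjusted p = 2.31e-05). ALAAT2, an alanine aminotransferase, which makes alanine from pyruvate with glutamate, had 1768, 1744 and 1969 normalized counts in doxycycline, against 372, 350.0 and 358 in water, with a change of 2.34 ± 0.11 (SE, limma adjusted p = 8.44e-07). The 3 genes cover the steps from pyruvate to ethanol and alanine, and none overlapped between groups. GAPC1, the cytosolic glyceraldehyde-phosphate dehydrogenase of glycolysis, had 19356, 20411 and 22534 normalized counts in doxycycline, against 4758, 4173 and 4678 in water, with a change of 2.19 ± 0.13 (SE, limma adjusted p = 3.23e-06).

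Genes of low energy status followed the same direction. Of 22 dark- and starvation-induced genes 10 were higher (45.5%, against 6.47% of all genes) and 0 lower (median 0.51). The higher count, however, was 2, 4, 3, 10, 5 and 4 without 1 library. DIN2, a beta-glucosidase induced in darkness, had 6565, 4365 and 5090 normalized counts in doxycycline, against 539, 195 and 173 in water, with a change of 4.32 ± 0.35 (SE, limma adjusted p = 3.49e-05). TPS11, a class II trehalose phosphate synthase family gene, had 3839, 3535 and 3567 normalized counts in doxycycline, against 1908, 1893 and 1323 in water, with a change of 1.11 ± 0.15 (SE, limma adjusted p = 0.000822). ASN1 (DIN6), the asparagine synthetase of sugar starvation, had 19193, 21579 and 14407 normalized counts in doxycycline, against 10944, 9858 and 9178 in water; its call (limma adjusted p = 0.00929) was lost without doxycycline 1 or 2 or water 2 or 3 (adjusted p = 0.117, 0.0971, 0.0858 and 0.119). A list of 23 genes for the breakdown of branched-chain amino acids, lysine and proline also held some genes that act on other amino acids. Of the 23, 6 were higher (26.1%, against 6.47% of all genes) and 0 lower. The higher count was 1, 1, 1, 6, 1 and 1 without 1 library. BCDH BETA1, a subunit of the branched-chain ketoacid dehydrogenase, had 1304, 1083 and 1293 normalized counts in doxycycline, against 625, 649 and 629.5 in water, and changed by 0.94 ± 0.11 (SE, limma adjusted p = 0.000483).

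Among other lists of carbon metabolism, shares of calls differed. Starch metabolism had 2 higher (0 to 2 without 1 library) and 0 lower of 29, with 6.9% higher near the 6.47% of all genes. The tricarboxylic acid cycle had 4 higher (1 to 3 without 1 library) and 1 lower of 26, or 15.4% higher. The sugars trehalose, raffinose and galactinol had 2 higher (1 to 2 without 1 library) and 3 lower (0 to 2 without 1 library) of 21. These were 9.5% and 14.3%, against 6.47% and 5.27% of all genes. ACO3, an aconitase, had 5971, 7145 and 7096 normalized counts in doxycycline, against 4148, 3501 and 3529 in water (change 0.85 ± 0.12, limma adjusted p = 0.00159), whereas PPC3, a phosphoenolpyruvate carboxylase, had 53.5, 90.8 and 44.9 normalized counts in doxycycline, against 416, 446 and 686 in water (change -3.04 ± 0.28, limma adjusted p = 9.03e-05). None of 20 Calvin cycle genes was called. RBCS1A, a small subunit of Rubisco, had 317990, 320659 and 287529 normalized counts in doxycycline, against 313686, 344021 and 297968 in water. The sum of the Calvin cycle genes was 936524, 963932 and 840615 normalized counts in doxycycline and 968871, 888264 and 902351 in water, with overlap. The change of RBCS1A was -0.04 ± 0.42 (SE). This SE is moderated toward the mean-variance trend over all genes, so it is wider than the spread of the RBCS1A values alone.

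Proteasome genes were higher together. The proteasome is the particle that degrades ubiquitin-tagged proteins, made of a core with the proteases and a regulatory cap that unfolds the substrate. Of 52 subunit genes 29 were higher and 0 lower, and all 52 had a change of at least 0, with a median of 0.42. In 39 of 52 (75.0%, against 15.4% of all genes) the 3 doxycycline libraries stood above the 3 water libraries. The summed level was 76773, 75102 and 81859 normalized counts in doxycycline and 55688, 57961 and 58417 in water. Called higher were 18 of 28 regulatory cap genes and 11 of 24 core genes. The whole list had 11, 14, 8, 20, 20 and 12 higher without 1 library, the cap 11, 10, 8, 15, 14 and 10 and the core 0, 4, 0, 5, 6 and 2.

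RPT3, an ATPase of the cap, had 4241, 4146 and 4672 normalized counts in doxycycline, against 2320, 2195 and 2094 in water, with a change of 0.98 ± 0.10 (SE, limma adjusted p = 0.000221). RPT2A, another ATPase of the cap, had 2493, 2724 and 2689 normalized counts in doxycycline, against 1424, 1495 and 1583 in water, with a change of 0.81 ± 0.10 (SE, limma adjusted p = 0.0006). RPN8B, a non-ATPase subunit, had 579, 579.7 and 687 normalized counts in doxycycline, against 242, 271 and 278 in water, with a change of 1.22 ± 0.13 (SE, limma adjusted p = 0.000274). These changes, 0.81 to 1.22 on the log2 scale, were small beside those of the detoxification genes above, and the groups did not overlap. NAC053 is a membrane-tethered factor known to raise proteasome genes under proteasome stress. NAC053 itself had 2222, 2179 and 2909 normalized counts in doxycycline, against 479, 479.8 and 493 in water, with a change of 2.32 ± 0.13 (SE, limma adjusted p = 2.37e-06).

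Promoters of these 3 subunits (RPT3 at chr5:23568952-23569051, RPT2A at chr4:14312183-14312282 and RPN8B at chr3:3528701-3528800, all plus strand, RefSeq TAIR10.1) are shown because they share a short element, site II (TGGGCC, both strands), in capitals.
RPT3: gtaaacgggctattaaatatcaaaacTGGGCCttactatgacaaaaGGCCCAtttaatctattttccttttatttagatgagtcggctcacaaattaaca
RPT2A: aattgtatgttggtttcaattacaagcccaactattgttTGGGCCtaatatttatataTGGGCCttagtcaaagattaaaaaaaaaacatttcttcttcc
RPN8B: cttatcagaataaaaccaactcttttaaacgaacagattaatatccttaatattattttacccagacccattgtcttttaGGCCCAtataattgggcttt
Site II stands 74 and 54 bases before the start in RPT3, 61 and 42 in RPT2A, and 20 in RPN8B. It stood in 38.5% of proteasome promoters and 54.3% of cytosolic ribosomal protein promoters, against 15.3% of all 22565 promoters, 12.8% of those higher and 11.5% of those lower. Calls went higher in the proteasome list and lower in the cytosolic ribosomal protein list.

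**Figure D4:**
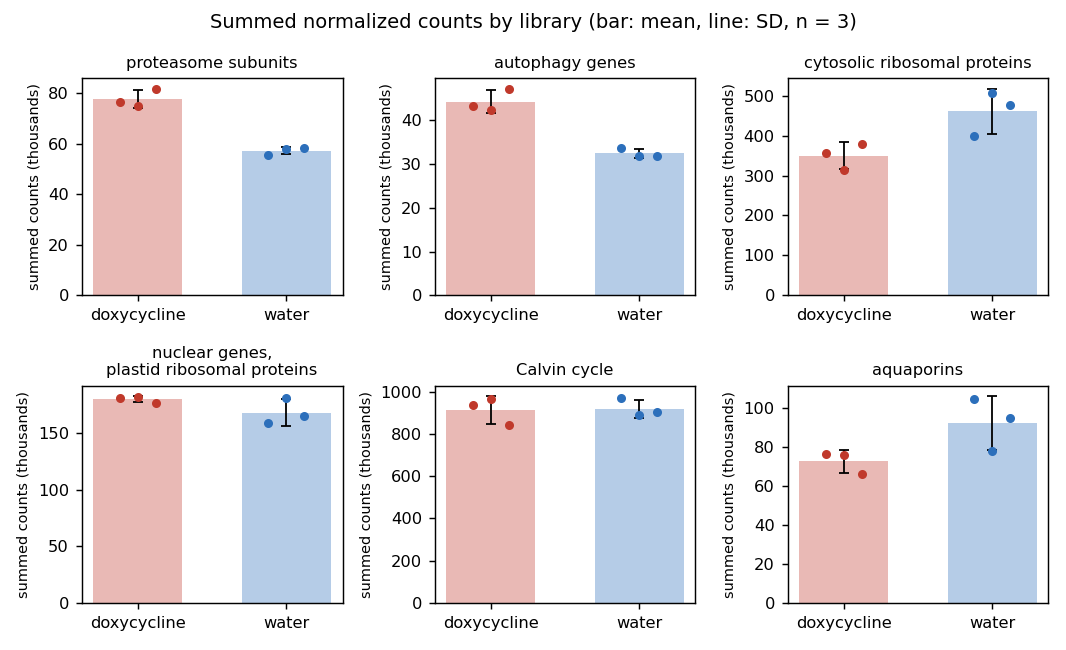
Summed normalized counts of 6 gene groups in each library, doxycycline left of water. The doxycycline libraries lie above water for proteasome and autophagy genes and below it for cytosolic ribosomal proteins and aquaporins, while Calvin cycle and nuclear genes for plastid ribosomal proteins overlap.

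Autophagy genes, which build the vesicles that carry cytoplasm to the vacuole, had 7 higher (19.4%, against 6.47% of all genes) and 0 lower of 36. Those higher were 3, 3, 3, 5, 6 and 3 without 1 library. Their summed level was 43274, 42373 and 47190 normalized counts in doxycycline and 33692, 31924 and 31864 in water. ATG8E, a ubiquitin-like protein of the vesicle membrane, had 5914, 5282 and 7510 normalized counts in doxycycline, against 2159, 2359 and 2047 in water, with a change of 1.5 ± 0.14 (SE, limma adjusted p = 8.93e-05). ATG8H and ATG18A changed by 1.02 ± 0.13 (SE, limma adjusted p = 0.000761) and 0.76 ± 0.12 (SE, limma adjusted p = 0.00223).

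Cytosolic ribosomal protein genes were called lower in 26.8% of members, by small amounts and with calls that hung on single libraries. Of 209 members 56 were lower and 1 higher, with a median of -0.43. The lower count was 2, 0, 1, 66, 3 and 0 without 1 library. In 109 of 209 (52.2%, against 15.2% of all genes) the 3 doxycycline libraries lay below the 3 water libraries, and the summed level was 356196, 314131 and 379056 normalized counts in doxycycline and 398276, 507400 and 476511 in water. The lowest water library, water 1, was 398276, and the highest doxycycline library, doxycycline 3, was 379056. Many of these genes have near-identical copies, and how reads shared by copies were counted is not stated in the labels, so single copies are uncertain. Nuclear genes for plastid ribosomal proteins, whose products work in the ribosomes that doxycycline binds, had 0 called of 34. In 12 of them (35.3%, against 15.4% of all genes) the 3 doxycycline libraries stood above the 3 water libraries, and in 1 below. Their summed level was 181040, 182331 and 177110 normalized counts in doxycycline and 159036, 181362 and 164982 in water, with overlap.

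Pentatricopeptide repeat genes, most of whose products edit, splice or stabilize organelle RNA, stood slightly higher in most members, few of which passed the test. Of 421 members 369 had a change above 0, the median was 0.39, and 166 (39.4%, against 15.4%) had all doxycycline libraries above all water libraries. Called higher were 25 (5.9%, near the 6.47% of all genes) and lower 1, and the higher count was 2, 2, 2, 8, 9 and 4 without 1 library. AT3G15590 had 1179, 1054 and 1180 normalized counts in doxycycline, against 707, 694 and 726 in water, with a change of 0.68 ± 0.10 (SE, limma adjusted p = 0.00231). Gene length and single libraries moved with these small shifts. Among genes with a mean of at least 100 normalized counts, the median change was -0.09 in the shortest of 5 equal classes (up to 1234 bases) and 0.09 in the longest (from 2681 bases). The median length was 927 bases for the cytosolic ribosomal protein genes, 2234 for the pentatricopeptide repeat genes and 1520 for the proteasome genes. By library, the median deviation from each gene's median over the 6 libraries (log2 scale) in the shortest and the longest class was -0.12 and 0.12 in doxycycline 2, 0.03 and -0.10 in water 3 and 0.07 and -0.04 in water 2. It was no further than 0.02 from 0 in the other 3 libraries. The part of length in these results was not tested.

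Plastid regulators of the nucleus had 4 higher (1 to 4 without 1 library) and 2 lower (1 to 2 without 1 library) of 22. GLK1, which activates photosynthesis genes, had 539.6, 546 and 538 normalized counts in doxycycline, against 1092, 899 and 978 in water, with a change of -0.86 ± 0.11 (SE, limma adjusted p = 0.000856). SIG5, a sigma factor of the plastid RNA polymerase, had 158, 224 and 183 normalized counts in doxycycline, against 72.4, 56.7 and 61.9 in water, with a change of 1.54 ± 0.23 (SE, limma adjusted p = 0.00163). The groups were apart in both, in opposite directions. Of 47 nuclear light-harvesting and photosystem genes 0 were higher and 1 lower. Their summed level was 793050, 764365 and 690587 normalized counts in doxycycline and 873298, 856927 and 846682 in water, without overlap, and 13 of the 47 (27.7%, against 15.2% of all genes) had all doxycycline libraries below all water libraries. Chlorophyll and haem synthesis had 1 higher and 0 lower of 29. The share of reads from the plastid genome itself was 0.120 to 0.194% in doxycycline, against 0.0154 to 0.0176% in water. Whether plastid RNA was captured alike in both groups was not tested.

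Among transcription factor families, NAC factors were called higher in 27.3% of members. Of 88, 24 were higher and 2 lower (0 without any 1 library), with a median of 0.55, and those higher were 13, 13, 13, 17, 17 and 14 without 1 library. ANAC13, which is tethered to the endoplasmic reticulum and binds the MDM, had 1410, 1279 and 1628 normalized counts in doxycycline, against 118, 93.3 and 116 in water, with a change of 3.71 ± 0.15 (SE, limma adjusted p = 4.38e-07). ANAC102, a stress factor, had 4718, 4750 and 5045 normalized counts in doxycycline, against 1624, 1510 and 1792 in water, with a change of 1.56 ± 0.11 (SE, limma adjusted p = 1e-05). Neither gene overlapped between groups. WRKY factors, known from defence and senescence, had 14 higher (20.6%, against 6.47% of all genes) and 4 lower (5.9%, against 5.27%) of 68. Without 1 library those higher were 8, 8, 7, 14, 8 and 9, and those lower 2, 1, 1, 4, 3 and 3. WRKY6, a regulator of senescence, had 3512, 4061 and 4207 normalized counts in doxycycline, against 1995, 1440 and 1587 in water, with a change of 1.24 ± 0.14 (SE, limma adjusted p = 0.000287). WRKY63 and WRKY25 changed by 4.34 ± 0.46 (SE, limma adjusted p = 0.000198) and 1.17 ± 0.13 (SE, limma adjusted p = 0.000271).

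Ethylene response factors had 17 higher (17.5%, against 6.47% of all genes) and 7 lower (7.2%, against 5.27%) of 97. Their higher count was 6, 5, 5, 14, 8 and 8 and their lower count 0, 0, 0, 1, 1 and 0 without 1 library. DREB2E, of the drought-responsive branch, had 250.5, 153 and 274 normalized counts in doxycycline, against 0, 1.92 and 2.1 in water, with a change of 6.72 ± 0.52 (SE, limma adjusted p = 2.16e-05). DREB2C of the same branch had 536, 604 and 869 normalized counts in doxycycline, against 61.4, 64.4 and 72.4 in water, with a change of 3.29 ± 0.20 (SE, limma adjusted p = 5.07e-06). ERF071, also called HRE2, which acts under low oxygen, had 163, 116 and 148 normalized counts in doxycycline, against 1.01, 2.88 and 2.1 in water, with a change of 5.62 ± 0.41 (SE, limma adjusted p = 1.64e-05). All 3 were low in water and higher in every doxycycline library. MYB factors had 13 higher (12.6%) and 5 lower (4.9%) of 103. Without 1 library those higher were 4, 5, 5, 9, 7 and 6, and those lower 0, 0, 1, 3, 3 and 1. The AGAMOUS-like MADS-box factors, known from flower and root development, had 1 higher and 1 lower of 55 (1.8% each).

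Cytokinin genes of the type A class were lower. Cytokinin signals through a phosphorelay whose fast targets are the type A response regulators, which in turn damp the signal. Of 9 type A regulators 6 were lower and 0 higher, with a median of -1.40. The lower count was 3, 3, 3, 3, 5 and 3 without 1 library. ARR7 had 68.3, 38.1 and 44.9 normalized counts in doxycycline, against 246, 222 and 309.5 in water, with a change of -2.37 ± 0.26 (SE, limma adjusted p = 0.000287). ARR4 had 446, 328 and 521 normalized counts in doxycycline, against 1054, 1010 and 1332 in water, with a change of -1.40 ± 0.18 (SE, limma adjusted p = 0.000679). The groups did not overlap in either. CRF6, a cytokinin response factor that also answers oxidative stress, had 1480, 1330 and 1483 normalized counts in doxycycline, against 500, 314 and 484 in water, with a change of 1.75 ± 0.17 (SE, limma adjusted p = 0.000117). The whole list of 37 genes had 4 higher (1 without any 1 library) and 10 lower (lower 4, 3, 3, 5, 7 and 4 without 1 library).

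Auxin genes split, with 9 higher (17.0%, against 6.47% of all genes) and 6 lower (11.3%, against 5.27%) of 53. Without 1 library those higher were 5, 5, 5, 7, 7 and 5, and those lower 4, 5, 4, 4, 6 and 4. GH3.3, which joins auxin to amino acids and so takes it out of use, had 431, 423 and 439 normalized counts in doxycycline, against 83.5, 50.0 and 61.9 in water, with a change of 2.74 ± 0.21 (SE, limma adjusted p = 2.3e-05). LAX3, an auxin influx carrier of roots, had 178, 191 and 208 normalized counts in doxycycline, against 523, 464 and 642 in water, with a change of -1.48 ± 0.16 (SE, limma adjusted p = 0.000226). IAA19, an early auxin target, had 44.5, 28.3 and 16.9 normalized counts in doxycycline, against 41.2, 59.6 and 47.2 in water, and the groups overlapped. Gibberellin genes had 3 higher (0 to 2 without 1 library) and 2 lower (0 to 1 without 1 library) of 26, and brassinosteroid genes 4 higher (0 to 2 without 1 library) and 2 lower (0 without any 1 library) of 26. DWF4, which limits brassinosteroid synthesis, had 617, 471 and 467 normalized counts in doxycycline, against 947, 488 and 623 in water, with overlap. Ethylene synthesis and response had 7 higher (25.9%) and 1 lower (3.7%) of 27, and those higher were 1, 1, 1, 5, 1 and 2 without 1 library. EDF1, an ethylene-induced repressor also known as TEM1, had 6889, 6924 and 7585 normalized counts in doxycycline, against 4227, 3424 and 3563 in water, with a change of 0.94 ± 0.12 (SE, limma adjusted p = 0.000728). ACS6, an enzyme of ethylene synthesis, had 5313, 5143 and 5545 normalized counts in doxycycline, against 6150, 6018 and 5790 in water and did not pass (limma adjusted p = 0.366).

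Water-stress and cold genes were higher in part. Of 38 abscisic acid genes 11 were higher and 1 lower, and of 21 cold genes 6 and 1. Higher were 28.9% and 28.6%, against 6.47% of all genes, and lower 2.6% and 4.8%, against 5.27%. The higher counts were 2, 3, 4, 6, 7 and 4 and 1, 3, 2, 4, 5 and 2 without 1 library. HB7, a homeobox factor induced by abscisic acid, had 1056, 960.3 and 943 normalized counts in doxycycline, against 273, 225 and 160.5 in water, with a change of 2.19 ± 0.18 (SE, limma adjusted p = 3.66e-05). XERO2, a dehydrin, had 3321, 2591 and 2869 normalized counts in doxycycline, against 704, 800.0 and 682 in water, with a change of 2.00 ± 0.12 (SE, limma adjusted p = 4.83e-06). CBF2, a factor that starts the cold response, had 465, 382 and 413 normalized counts in doxycycline, against 378, 382 and 389 in water, and the groups overlapped. So downstream cold genes were called while this factor was not. In the other stress lists, cytosolic heat shock genes had 7 higher (21.9%, and 3 to 5 without 1 library) and 0 lower of 32. Senescence genes had 6 higher (35.3%, and 2 to 4 without 1 library) and 1 lower (5.9%) of 17. Endoplasmic reticulum chaperones and stress genes went the other way, with 1 higher and 15 lower (8 to 14 without 1 library) of 28. That is 53.6% lower, against 5.27% of all genes, with a median of -0.86. Their summed level was 23374, 23091 and 25284 normalized counts in doxycycline and 41339, 35840 and 38378 in water, without overlap. Jasmonate genes had 1 higher and 2 lower (0 to 2 without 1 library) of 28, and salicylate and defence genes 3 higher (0 to 3 without 1 library) and 3 lower (1 to 3 without 1 library) of 27. Proline and polyamine synthesis had none called of 14.

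Some clock genes of the later day and evening were higher in doxycycline. The clock runs on factors that repress each other in turn over the day, with CCA1 at dawn and the pseudo-response regulators, GI and the evening complex later. Of 26 clock genes 6 were higher (23.1%, against 6.47% of all genes) and 1 lower (3.8%, against 5.27%). Those higher were 3, 2, 2, 7, 4 and 3 without 1 library. GI had 586, 844 and 707 normalized counts in doxycycline, against 250.5, 309.6 and 269.6 in water, with a change of 1.35 ± 0.16 (SE, limma adjusted p = 0.000422). LUX, the DNA-binding part of the evening complex, had 1303, 1317 and 1402 normalized counts in doxycycline, against 925, 800.0 and 820.4 in water, with a change of 0.66 ± 0.11 (SE, limma adjusted p = 0.00297). Of 5 pseudo-response regulator genes 3 were higher, and in all 5 every doxycycline library exceeded every water library. The higher count was 1, 0, 0, 3, 1 and 1 without 1 library. CCA1 had 4.95, 16.6 and 8.97 normalized counts in doxycycline, against 12.1, 3.85 and 6.29 in water, low in both groups and overlapping. The labels do not give the hour at which either group was collected.

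The promoter of LUX (chr3:17182942-17183041, plus strand, RefSeq TAIR10.1) is shown because it holds the evening element (AAAATATCT, both strands), a motif of clock-controlled promoters, in capitals.
LUX: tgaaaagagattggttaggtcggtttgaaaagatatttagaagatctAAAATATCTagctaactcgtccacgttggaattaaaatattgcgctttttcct
The element lies 53 bases before the start. It stood in 26.9% of the clock gene promoters, in 3.5% of those higher, in 1.4% of those lower and in 2.4% of all. Light signalling genes had 7 higher (19.4%, against 6.47% of all genes) and 2 lower (5.6%, against 5.27%) of 36. Without 1 library those higher were 1, 2, 1, 3, 3 and 3, and those lower 0, 0, 0, 0, 2 and 1. BBX22, a B-box factor that promotes light responses, had 1135, 1206 and 1409 normalized counts in doxycycline, against 619.8, 618 and 557 in water, with a change of 1.06 ± 0.12 (SE, limma adjusted p = 0.000316). HY5, the main factor of light responses, had 846, 590.4 and 902 normalized counts in doxycycline, against 606, 831 and 592 in water, with overlap.

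In the 3 lists of cell division genes given next, 1.5 to 6.7% of members were higher, against 6.47% of all genes. Lower were 0 to 1.5%, against 5.27%. Of 65 cyclins and cyclin-dependent kinases 1 was higher and 1 lower, of 35 DNA replication genes 1 and 0, and of 45 histone genes 3 (0 to 1 without 1 library) and 0. The summed cyclin and kinase level was 11941, 12040 and 11919 normalized counts in doxycycline and 11656, 11937 and 11849 in water, with overlap. PCNA1, the clamp of DNA replication, had 27.7, 13.7 and 18.9 normalized counts in doxycycline, against 27.2, 25.0 and 91.3 in water. Here water 3 stood apart from the other libraries. Seed storage and embryo genes had 0 higher and 1 lower of 14 and were low in every library.

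Shares were compared for 13 motifs, with no test. Besides MDM, the W-box (TTGACC), to which WRKY factors bind, stood in 16.9% of promoters higher, 13.0% of those lower and 12.2% of all, and in 23.2% of those at least 8-fold higher. The dehydration element (ACCGAC) stood in 7.3%, 4.3% and 5.0% in the same order. The endoplasmic reticulum stress element, CCAAT and CACG parted by 10 bases, stood in 0.9%, 1.6% and 0.8%. The TATA motif (TATAAA, either strand) stood in 48.8% of promoters higher, 51.2% of those lower and 46.8% of all, and in 63.4% of those at least 8-fold lower. The telo box (AAACCCTA) stood in 20.7% of cytosolic ribosomal protein promoters and 3.8% of all. Motifs can overlap one another, and a match is a description of letters, not of binding.

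**Figure D5:**
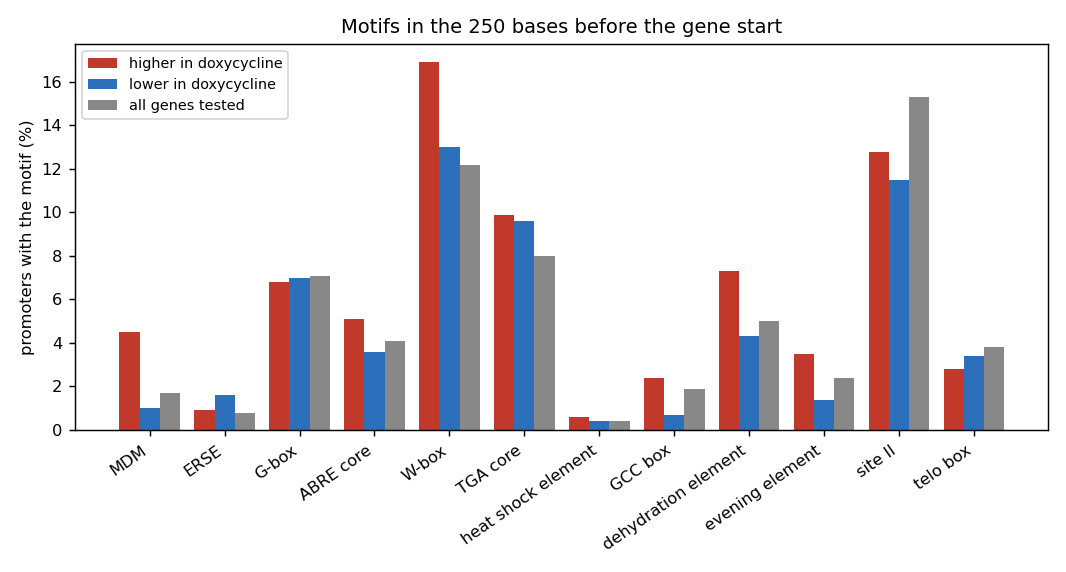
Share of promoters (percent, 250 bases before the start) that hold each of 12 motifs (the TATA motif is not drawn), for genes higher in doxycycline, genes lower in doxycycline and all 22565 promoters. MDM is at 4.5% in the genes higher, 1.0% in the genes lower and 1.7% in all, and the W-box at 16.9%, 13.0% and 12.2%.

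Among called genes with a mean of at least 500 normalized counts, the largest rises were led by detoxification genes. UGT74E2, which glucosylates the auxin precursor indole-3-butyric acid, had 3482, 4268 and 5499 normalized counts in doxycycline, against 2.01, 33.6 and 3.15 in water, with a change of 9.16 ± 0.72 (SE, limma adjusted p = 2.58e-05). GSTU25, a tau glutathione transferase, had 2918, 3525 and 3078 normalized counts in doxycycline, against 6.04, 3.85 and 19.9 in water, with a change of 8.47 ± 0.43 (SE, limma adjusted p = 1.48e-06). CYP81D11, a P450 induced by xenobiotics, had 1443, 1494 and 2254 normalized counts in doxycycline, against 5.03, 25.0 and 7.34 in water, with a change of 7.28 ± 0.46 (SE, limma adjusted p = 5.45e-06). The other rises in the first 12 were AT5G24640, GSTU24, AT4G12735, DTX3, AT2G21640, PDC1, UGT73B4 and the plastid genes MATK and NDHA, with changes of 5.76 (NDHA) to 8.38 (AT5G24640).

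The 12 largest falls at the same minimum mean had log2 changes of -1.91 (BGLU22) to -4.33 (ATDR4). ATDR4, annotated as a Dr4 protein, had 68.3, 129.8 and 45.9 normalized counts in doxycycline, against 1021, 1322 and 2563 in water, with a change of -4.33 ± 0.39 (SE, limma adjusted p = 6.23e-05). ATPMEPCRA, a pectin methylesterase, had 517, 455 and 467 normalized counts in doxycycline, against 2576, 1457 and 3398 in water, with a change of -2.29 ± 0.25 (SE, limma adjusted p = 0.00024). AT2G43150, annotated as a proline-rich extensin-like protein, had 1378, 1098 and 1279 normalized counts in doxycycline, against 4514, 4109 and 6164 in water, with a change of -1.96 ± 0.16 (SE, limma adjusted p = 3.05e-05). The other falls in the first 12 were NRT1.5, MLP34, AT3G54040, AT3G21351, AT5G38940, NIP5-1, AT2G43620, AT4G30670 and BGLU22. Of these MLP34, AT3G54040, AT3G21351, AT2G43620 and BGLU22 lost their call when single libraries were left out, with limma adjusted p-values up to 0.111, 0.108, 0.195, 0.107 and 0.159.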

How the data were processed

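Reads were counted per gene in 3 doxycycline and 3 water libraries, made with a NEBNext Ultra kit from TRIzol extracts, per the labels' protocols. The submitters' processing notes list DESeq 1.18.0, HTSeq 0.6.1, TopHat2 2.0.12, Bowtie2 2.2.3 and CASAVA 1.8 without saying what each did. Build, read assignment and strand setting are not given there, and counts of overlapping or antisense genes may therefore be mixed. The signal values the authors deposited are counts scaled by 1 size factor per library: multiplied back, 100% of values came out as whole reads (tolerance 0.001 reads). The authors also deposited, in the same table, log2 fold changes and p-values of their own comparison. By the authors' deposited table, 3430 genes have an adjusted p under 0.05, of which 2776 are among the 2868 called here. A table of another treatment, with 6 value columns, was not used.

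Values were tested with limma 3.58.1 (R 4.3.3) on log2(value + 1) with a mean-variance trend, over 24434 genes and 6 libraries, two-sided, with Benjamini-Hochberg adjustment and a threshold of 0.05. The pseudocount understates changes of low genes. At an unadjusted p under 0.05 there were 6268 genes. Alternatives were edgeR 4.0.16 and DESeq2 1.42.0 (both run on recovered reads), other pseudocounts, filters, thresholds, centring, a replicate block and leaving out each library. The gene lists and the choice of this comparison were made with earlier results of these data known, so patterns described from these data before are not independent support. Lists were described by counts and medians, without list tests. Genes named in the text were the first 2 names of each list, the 3 called members per list that had the lowest adjusted p, and the 12 largest rises and 12 largest falls among called genes with a mean of at least 500. Names came from the deposited table and RefSeq (TAIR10.1), which held 23973 of the 24434 identifiers, 99.97% of them with the same start and end. Promoters are RefSeq sequence, 250 bases before the annotated start. Replicates of a group differed by a chi-square over its degrees of freedom of 12.2 to 47.3, so none was counted as a copy. Data were simulated from the real means (24311 genes), with 100 genes changed 4-fold and 100 changed 2-fold, all with a mean of at least 10 reads. Recovery by limma was 86% for 4-fold and 53% for 2-fold changes, with 14 false calls. Far fewer genes were changed there than the 2868 called here, so recovery in the real data may differ. Floors of 3 reads over a group cover counting error only.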

Additional observations from a re-analysis of the deposited data

How the results depend on the processing

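The counts of genes higher in doxycycline and genes lower in doxycycline moved with the processing. Beside 1581 higher and 1287 lower, they were 872 and 553 without a mean-variance trend, 834 and 447 at an adjusted p under 0.01, and 896 and 683 among changes of at least 2-fold. Leaving out 1 library gave 520 to 1168 higher and 248 to 812 lower, from fits with fewer samples. A pseudocount of 0.1 gave 1469 and 1171, and one of 5 gave 1552 and 1265. Genes with a mean of at least 10 gave 1571 and 1262, centring each library on its median 1462 and 1488, edgeR 1497 and 1356, and DESeq2 1787 and 1644. Centring moved the median of all genes to -0.04, against -0.01. A replicate block gave 1252 and 891. Replicate numbers did not mark shared samples: deviations of same-numbered libraries correlated at -0.015, 0.035 and 0.008 over 19647 genes, so calls lost under the block are not read as weaker effects. For the 231 named genes, 1737 of 1818 results under alternatives other than leaving out a library kept direction and side of the threshold, 76 no longer passed, 5 passed anew and 0 reversed. Of 1386 results without 1 library, 1004 were kept, 379 no longer passed, 3 passed anew and 0 reversed. Limma found 53% of simulated 2-fold changes and 86% of 4-fold changes, in data where far fewer genes changed than were called here. Changes under 2-fold were not simulated.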

Other observations

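Protein families were also counted by the domain names in the deposited annotation; the families given here were chosen after their values were seen. AAA ATPases, ring-shaped machines that remodel proteins, had 29 higher (29.3%, against 6.47% of all genes) and 1 lower (1.0%, against 5.27%) of 99 genes. Their median log2 change was 0.29. The higher count was 20, 21, 20, 25, 24 and 22 without doxycycline 1, 2 and 3 and water 1, 2 and 3. Pyridine nucleotide-disulphide reductases (Pyr_redox_2), flavin enzymes of redox metabolism, had 8 higher (32.0%) and 1 lower (4.0%) of 25. Here the higher count was 5, 4, 4, 6, 4 and 6. GDSL lipases, many of them secreted, had 3 higher and 13 lower of 74, and the lower count was 1, 0, 1, 10, 7 and 0 in the same order. Tubulins, the subunits of microtubules, had 0 higher and 4 lower of 20, and the lower count was 0, 0, 0, 3, 2 and 0.

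By place in the genome, genes called higher made up 6.3%, 6.3%, 5.9%, 6.3% and 6.0% of chromosomes 1 to 5, and genes called lower 5.0%, 5.2%, 5.4%, 5.8% and 5.4%. In the plastid genome 80 of 108 genes were higher (74.1%) and 0 lower (higher 55, 42, 40, 60, 57 and 46 without 1 library, in the order above). The plastid genome gave 0.0154 to 0.194% of the reads of a library. Whether its RNA was captured alike in both groups was not tested. In the mitochondrial genome 6 of 77 were higher (7.8%, near the 6.47% of all genes) and 0 lower (higher 2, 0, 0, 6, 3 and 0). Of 74 tRNA genes 14 were higher (18.9%, against 6.47% of all genes) and 0 lower (higher 8, 5, 5, 10, 10 and 7 without 1 library). Of 910 genes annotated as long non-coding RNA 8 were higher (0.9%, below the 6.47% of all genes) and 0 lower. Their higher count was 4, 3, 5, 6, 8 and 4 without 1 library.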
